A study of Mus musculus with 51 samples.

Results

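Mammary glands (MG) of C57BL/6 mice taken 4 hr after the last of 4 weekly high doses (HD) of X-rays were compared directly with glands taken 4 hr after the last of 4 weekly low doses (LD). The comparison holds 8 of the 51 arrays of the series, 4 HD and 4 LD, which were chosen by their titles, and it leaves the sham arrays out. All mice were female virgins, 8 weeks old when the exposures began. HD mice received 1.8 Gy a week at 783 mGy/min and LD mice received 7.5 cGy a week at 196 mGy/min, so that dose and dose rate cannot be told apart. The inguinal lymph node had been taken out of the gland, and each array held the RNA of 1 mouse. Levels are log2 values after robust multi-array averaging (RMA). Those of 3 sham-exposed C57BL/6 glands of the same time are given beside the genes, and the same contrast was read in BALB/c glands at 4 hr and in C57BL/6 glands at 1 month, with 4 HD and 4 LD arrays each.

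Ionizing radiation breaks DNA, and the breaks stabilize p53, a transcription factor that halts the cell cycle, induces its own inhibitors and can start apoptosis. MHC class II molecules are paired chains with which dendritic cells, B cells and macrophages show peptides to helper T cells. Their promoters share boxes at which the coactivator CIITA is recruited, and the chains travel with the invariant chain and are loaded with peptide by H2-DM.

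At 4 hr, 25 of 11807 genes were higher in HD than in LD glands (0.212% of genes) and 19 were lower (0.161%) when limma's p, adjusted over all probe sets, was under 0.05. The higher genes were led by targets of p53, among them the cell cycle inhibitor Cdkn1a, the thiamine transporter Slc19a2 and the nuclease Aen. The lower genes were led by the MHC class II genes H2-Aa, H2-Ab1 and H2-Eb1 and the invariant chain gene Cd74. Differences of HD minus LD lay between 0.54 and 2.26 on the log2 scale in the higher genes and between −1.61 and −0.56 in the lower genes. In each of the 44 genes the HD arrays did not overlap with the LD arrays. Of all genes, 4.84% were separated upward and 6.78% downward at any of their probe sets. The 44 genes were chosen on these same arrays, so that their separation was favoured in advance. HD arrays also lay above all 3 sham arrays in 25 of the 25 higher genes (5.50% of all genes) and below them in 18 of the 19 lower genes (8.04% of all genes), the exception being Ptpre. The same HD arrays had been used to choose the genes, so that these counts are no independent support. LD arrays overlapped with the sham arrays in 23 of the higher and 18 of the lower genes, as in 94.1% of all genes.

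The 8 arrays correlated at 0.981 to 0.994, and their medians were 6.16 to 6.26 in HD and 6.30 to 6.33 in LD. HD samples stood in plate columns 6 to 8, LD samples in columns 9 to 12 and sham samples in columns 1 to 3, so that no HD array shared a column with an LD array. With plate column as a linear term, 44 of the 44 genes kept their sign and only Slc19a2 kept its call. Column nearly follows dose in these arrays, so that this fit has little precision and a lost call does not tell them apart. Single arrays moved the counts too. Higher genes numbered 16 without HD replicate 2 and 30 without LD replicate 1, and lower genes numbered 3 without HD replicate 3 and 65 without LD replicate 1. In all 8 fits that left out 1 array, 15 higher and 3 lower genes passed.

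The glands carried bright markers of adipocytes (Adipoq), fibroblasts (Dcn) and luminal epithelium (Krt18), while markers of skeletal muscle, epidermis and lymphocytes were mostly dim. Brown fat markers were bright and Ucp1 spread widely, at 6.77 to 11.24, with a mean of 9.83 in HD and 8.72 in LD (adjusted p = 0.548 from limma). Cidea of brown fat had 10.05 to 11.40. The mast cell genes Cpa3 and Mcpt4 had 7.35 to 9.71 and 7.07 to 8.93. Of skeletal muscle, Myh4 lay in the dimmest 25% of probe sets, Ckm reached 5.19 and Acta1 reached 7.50. Of epidermis and hair, Krt1, Lor and Krt25 lay in the dimmest 25%, and Krt10 had 5.77 to 6.21. Of liver, Apoa1 lay in the dimmest 25%, but Alb had 6.94 to 9.43, with a mean of 8.49 in HD and 7.76 in LD (adjusted p = 0.429). Cd3d and Cd3g of T cells and Cd79a and Ms4a1 of B cells lay in the dimmest 25%, whereas Cd3e had 5.40 to 6.15 and Cd79b 4.50 to 5.13.

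Promoters of the higher genes are shown because 3 of the p53 targets among them held a p53 site near a start site. The sequences are from RefSeq on GRCm38.p6, and a promoter runs from 250 bases before to 50 bases after a start site. A p53 site was taken as 2 adjacent p53 half-sites with intact core bases and at most 1 mismatch in 20 bases, a pattern that reads alike on both strands. It occurred in 3 of the 37 p53 targets with a promoter in the table (8.11%), in 0 of 14 lower genes and in 0.0814% of 27025 genes. A single half-site occurred in 7 of 13 higher p53 targets (53.8%) and in 13 of the 37 targets (35.1%). It occurred in 2 of 14 lower genes (14.3%) and in 9.55% of all genes. The genes were listed as known p53 targets, so that such letters were likely in advance. A match is a description and not a bound site. The capitals mark the site. A gene can have several annotated start sites, and positions are given from one whose promoter held the site, which need not be the main one. It began at −51 from such a start site in Cdkn1a and at −195 in Ccng1, and it spanned one in Gtse1.
Cdkn1a, chr17:29090898-29090977, plus strand: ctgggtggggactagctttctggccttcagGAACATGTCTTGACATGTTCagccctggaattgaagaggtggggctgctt
Ccng1, chr11:40755432-40755511, minus strand: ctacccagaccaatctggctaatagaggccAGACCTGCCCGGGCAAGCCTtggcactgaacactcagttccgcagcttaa
Gtse1, chr15:85859940-85859969, plus strand: accggGAGCAAGTTGGGGCTTGCCTctgac

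Promoters of MHC class II genes are shown, namely H2-Aa, H2-Eb1 and H2-DMb2 of the lower genes and H2-DMb1, which was not called. GATTGG, the letters of the Y box bound by NF-Y, occurred on either strand in 7 of the 7 MHC class II genes with a promoter in the table and in 18.2% of all genes. GATGATG, which lies in the X box, occurred beside it in 3 of these 7 genes, and 0.537% of all genes held both. These letters were picked after the sequences had been read, and a match is a description and not a bound site. The capitals mark GATGATG and GATTGG, which had 18 bases between them in H2-Eb1 and 19 in H2-DMb2 and H2-DMb1. In H2-Aa only GATTGG was matched.
H2-Aa, chr17:34287853-34287922, minus strand: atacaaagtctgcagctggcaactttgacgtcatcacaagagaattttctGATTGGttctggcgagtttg
H2-Eb1, chr17:34305757-34305826, plus strand: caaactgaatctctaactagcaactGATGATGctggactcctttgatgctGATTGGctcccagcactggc
H2-DMb2, chr17:34145108-34145177, plus strand: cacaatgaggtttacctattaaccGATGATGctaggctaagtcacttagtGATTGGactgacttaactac
H2-DMb1, chr17:34153079-34153148, plus strand: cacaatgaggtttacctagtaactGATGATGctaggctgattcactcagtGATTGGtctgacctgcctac

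Of 46 p53 targets measured, 15 were higher in HD than in LD glands and 0 were lower, where 0.212% of all genes were higher. Their median difference was 0.31, beside −0.00072 over all genes with each gene at its brightest probe set, and 35 of the 46 were above 0. The mean level of the list was 0.13 to 0.29 in the HD arrays and −0.35 to −0.22 in the LD arrays, each gene taken relative to its median over the 8 arrays, and −0.41 to −0.33 in the sham arrays. The list median was 0.33 with plate column as a linear term and 0.38 after quantile normalization.

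Cdkn1a encodes p21, the inhibitor of cyclin-dependent kinases through which p53 arrests the cell cycle. Its log2 level was 8.58, 9.09, 8.55 and 8.81 in the HD arrays, against 7.74, 5.96, 6.06 and 6.21 in the LD arrays and 5.72 to 6.66 in the sham arrays. The groups did not overlap, although LD replicate 1 stood above every other LD array and every sham array. The difference was 2.26 (SE 0.35, adjusted p = 0.0354 from limma), a 4.80-fold higher level in HD, and it was 2.26 at the other probe set as well (SE 0.42, adjusted p = 0.0817). Without LD replicate 1 the difference was 2.68 (adjusted p = 9.32e-05), and without any 1 of the other 7 arrays the call was lost (adjusted p up to 0.134). It was 1.57 with plate column as a linear term.

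Slc19a2, which brings thiamine into the cell, had the smallest adjusted p of all named genes. It measured 8.63, 8.62, 8.49 and 8.53 in the HD arrays, against 6.66, 6.56, 6.62 and 6.58 in the LD arrays and 6.38 to 6.68 in the sham arrays. LD and sham arrays lay together, and the HD arrays stood far above both. The difference was 1.96 (SE 0.075, adjusted p = 4.87e-06), a 3.90-fold higher level, and it passed whichever array was left out and with plate column as a linear term (1.96, adjusted p = 0.0135). Its second, dimmer probe set differed by 0.73 (adjusted p = 0.119).

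Some of the 15 encode proteins that act on p53 or on Mdm2; they were grouped after their values were seen. Mdm2, the ubiquitin ligase that marks p53 for degradation, measured 8.65, 8.58, 8.35 and 8.37 in the HD arrays, against 7.50, 7.36, 7.33 and 7.34 in the LD arrays. The groups were apart by 1.10 (SE 0.095, adjusted p = 0.00131), and 2 of its 2 probe sets passed. Ccng1, cyclin G1, which acts on Mdm2 through a phosphatase, lay between 10.26 and 10.45 in the HD arrays and between 8.96 and 9.29 in the LD arrays, and each of its 3 probe sets passed with differences of 0.98 to 1.20. Trp53inp1, a stress-induced partner of p53, was higher by 1.21 (SE 0.11, adjusted p = 0.00191), and LD replicate 4 lay below the other LD arrays. Gtse1, which binds p53 and lowers its activity, was dim, with 5.06 to 5.47 in the HD arrays and 4.13 to 4.44 in the LD arrays (difference 0.97, SE 0.12, adjusted p = 0.0109). Ppm1d, a phosphatase that acts on p53 and is also on the list, did not pass, with a difference of 0.34 (adjusted p = 0.272).

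Among p53 targets that act on RNA or growth, Zmat3, an RNA-binding zinc finger protein, measured 8.96, 9.09, 8.85 and 8.97 in the HD arrays, against 7.68, 7.90, 7.55 and 7.61 in the LD arrays. The difference of 1.28 (SE 0.099, adjusted p = 0.000746) was wider than either group. Sesn2, sestrin 2, which restrains mTORC1, was higher by 0.90 (SE 0.084, adjusted p = 0.00191). Enzymes of small-molecule metabolism were also called, namely Dcxr, a carbonyl reductase (1.05, SE 0.079), Ak1, adenylate kinase 1 (1.10, SE 0.13), and Ephx1, the microsomal epoxide hydrolase (0.90, SE 0.10). For Ephx1 the LD arrays (9.57 to 9.96) lay above the sham arrays (9.16 to 9.5), and the HD arrays lay at 10.57 to 10.80.

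Apoptosis genes were also listed apart. Of 19 p53-linked apoptosis genes, 3 were higher (Aen, Apaf1 and Ei24), 0 were lower and the median was 0.11, where 0.212% of all genes were higher. These 3 genes are also among the 15 p53 targets called. Aen, a nuclease that takes part in apoptosis, measured 7.30, 7.34, 7.17 and 7.01 in the HD arrays, against 5.52, 5.09, 5.48 and 5.45 in the LD arrays. This was a 3.53-fold higher level (difference 1.82, SE 0.12, adjusted p = 0.000403). Apaf1, the scaffold of the apoptosome, was higher by 0.65 (SE 0.081, adjusted p = 0.0110) and lost its call without HD replicate 2 or 3 (adjusted p up to 0.0534). Ei24, a membrane protein of the endoplasmic reticulum, was higher by 0.54 (SE 0.081, adjusted p = 0.0317) and kept its call in 1 of 8 such fits. The death receptor Tnfrsf10b had a difference of 0.61 (adjusted p = 0.125), with HD arrays at 4.76 to 5.04 and LD arrays at 3.95 to 4.54, and the p53-induced death domain protein Pidd1 had one of 0.38 (adjusted p = 0.132).

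DNA repair genes were called once. Polk, a polymerase that copies past damaged bases and also a p53 target, measured 8.16, 8.05, 8.00 and 8.10 in the HD arrays, against 6.85, 7.49, 7.39 and 7.09 in the LD arrays. It was higher by 0.87 (SE 0.14, adjusted p = 0.0357). It was the only 1 of 47 repair genes to pass in either direction, where 0.373% of all genes passed. The list median was −0.10. Polk kept its call in 2 of the 8 fits without 1 array, and Mgmt, which removes alkyl groups from guanine, had a difference of 0.61 (adjusted p = 0.0895). Chek1, a checkpoint kinase, Lig3, a DNA ligase, and Ercc4, an excision nuclease subunit, had differences of −0.50, −0.49 and −0.29 (adjusted p of 0.152, 0.181 and 0.241), and each had probe sets of the other sign. Of the 15 p53 targets called, all but Cdkn1a, Apaf1, Ei24 and Polk passed in each of the 8 fits.

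**Figure D1:**
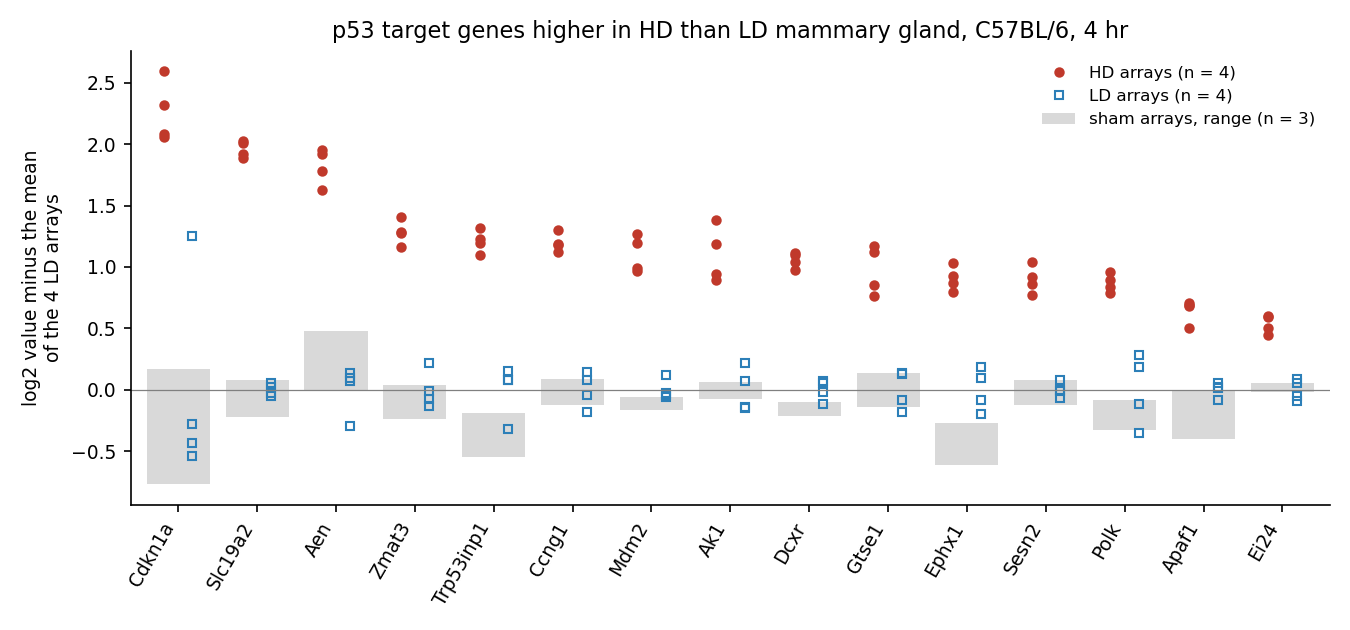
Log2 value of each array minus the mean of the 4 LD arrays for the 15 p53 targets higher in HD, with HD arrays as filled circles on the left, LD arrays as open squares on the right (n = 4 each) and the range of 3 sham arrays as grey boxes. The HD arrays lie above every LD and sham array in each gene, and the LD array of Cdkn1a nearest to them is replicate 1, with a log2 level of 7.74.

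The other 10 higher genes were of mixed kinds. Alas2, which starts haem synthesis in red cell precursors, measured 7.80, 7.88, 8.37 and 7.97 in the HD arrays, against 5.95, 6.41, 6.49 and 6.91 in the LD arrays (difference 1.57, SE 0.19, adjusted p = 0.0110). It passed in all 8 fits without 1 array. Other red cell transcripts lay higher in HD as well without passing the test. Hba-a1, an alpha globin, had 10.32 to 10.94 in the HD arrays and 8.91 to 9.99 in the LD arrays (1.24, adjusted p = 0.0779), and Hbb-b2, a beta globin whose probes may also read its near-identical neighbours, had a difference of 0.64 (adjusted p = 0.0951). Slc4a1, the red cell anion exchanger, and Car1, a carbonic anhydrase, differed by 0.45 and 0.15 (adjusted p of 0.189 and 0.442). The 7 red cell genes had a median of 0.45, with list means of 0.08 to 0.34 in the HD arrays and −0.39 to −0.15 in the LD arrays. Blood content of the glands was not measured, and its part in these values was not tested.

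Rbp7, a retinol-binding protein, was 2.63-fold higher (difference 1.39, SE 0.23, adjusted p = 0.0457) and kept its call in 2 of 8 fits without 1 array. Aaas, a nuclear pore component, had HD arrays between 7.44 and 7.49 and LD arrays between 6.31 and 6.61 (0.98, SE 0.084, adjusted p = 0.00131). Pvt1, a long non-coding RNA beside Myc, was higher by 0.96 (SE 0.084, adjusted p = 0.00131), and Ddit4l, an inhibitor of mTOR signaling, by 0.85 (SE 0.085, adjusted p = 0.00260). These 3 genes passed whichever array was left out. Dglucy, the D-glutamate cyclase, Trim11, a ubiquitin ligase, Thyn1, Sac3d1 and Zfp958 were higher by 0.57 to 0.85, and none of these 5 passed in all 8 fits.

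MHC class II genes made up 5 of the 19 lower genes. Of 11 members measured, 5 were lower and 0 higher, where 0.161% of all genes were lower, and the median difference was −1.22. At the brightest probe sets, 7 of the 11 had HD arrays below all LD arrays, as had 5.15% of all genes. The mean level of the list was −0.55 to −0.15 in the HD arrays, 0.16 to 0.64 in the LD arrays and 0.49 to 0.80 in the sham arrays.

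The classical chains differed most. H2-Aa, the alpha chain of I-A, measured 8.86, 8.03, 8.65 and 9.07 in the HD arrays, against 10.40, 10.30, 9.71 and 10.64 in the LD arrays and 10.54 to 11.09 in the sham arrays. HD arrays lay below all others, with a difference of −1.61 (SE 0.24, adjusted p = 0.0325), or a 3.05-fold lower level. H2-Ab1, the beta chain of I-A, measured 6.38, 6.07, 6.15 and 6.48 in the HD arrays, against 8.07, 7.80, 7.35 and 8.20 in the LD arrays (−1.58, SE 0.18, adjusted p = 0.00646), and 3 of its 3 probe sets passed. H2-Eb1, the beta chain of I-E, measured 8.38, 8.19, 8.32 and 8.60 in the HD arrays, against 9.86, 9.87, 9.49 and 10.20 in the LD arrays (−1.49, SE 0.15, adjusted p = 0.00254). H2-Ab1 and H2-Eb1 passed whichever array was left out, and H2-Aa passed in 2 of the 8 fits.

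The genes for chain transport and peptide loading followed. Cd74, the invariant chain, measured 9.59, 9.43, 9.54 and 9.89 in the HD arrays, against 10.98, 10.82, 10.42 and 11.15 in the LD arrays (−1.23, SE 0.16, adjusted p = 0.0143). H2-DMb2, a beta chain of the peptide exchanger H2-DM, measured 5.92, 6.32, 6.09 and 6.54 in the HD arrays, against 7.78, 7.25, 7.18 and 7.55 in the LD arrays (−1.22, SE 0.17, adjusted p = 0.0178). Its other probe set was dim and differed by 0.06. Cd74 kept its call in 4 of the 8 fits without 1 array and H2-DMb2 in 5. Of the members that did not pass, H2-DMa, the alpha chain of H2-DM, had 5.51 to 6.44 in the HD arrays and 6.69 to 7.92 in the LD arrays (−1.42, adjusted p = 0.0895), and H2-DMb1 had a difference of −0.55 (adjusted p = 0.153). H2-DMb1 and H2-DMb2 are close copies, so their probes may read each other's transcripts.

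The coactivator Ciita and the H2-DM modulators H2-Oa and H2-Ob lay in the dimmest 25% of probe sets, with differences of −0.04, −0.07 and −0.17. H2-Ea, the alpha chain of I-E that C57BL/6 mice do not express, measured 3.57 to 3.95 in the HD arrays and 3.51 to 3.66 in the LD arrays at the probe set of smallest p. In whole tissue, fewer cells of a type and less RNA per cell cannot be told apart. Markers of macrophages and B cells, which carry MHC class II, and of T cells are given beside these genes. No list of dendritic cell genes was made, and the part of cell numbers in these values was not tested. Of the macrophage markers, Adgre1 differed by −0.11, Cd68 by 0.44 and Csf1r by 0.07, and the 30 macrophage genes had a median of 0.12 and list means of −0.42 to 0.25 in the HD arrays and −0.41 to 0.55 in the LD arrays. Ccr2 was the only 1 of the 30 to pass, and it was lower, where 0.161% of all genes were lower. Cd14, a receptor for bacterial lipopolysaccharide, had 7.66 to 8.16 in the HD arrays and 8.28 to 9.09 in the LD arrays (−0.81, adjusted p = 0.129). Siglec1, a sialic acid receptor of macrophages, and Trem2, a lipid receptor, were dim, with HD arrays above all LD arrays (0.27 and 0.18, adjusted p of 0.208 and 0.310), and another probe set of Siglec1 was below 0. Of the B cell markers, Cd79a, Cd79b and Ms4a1 lay between 4.02 and 5.13 on the log2 scale and differed by −0.16, −0.24 and −0.06. Vpreb3, a partner of the pre-B cell receptor, had 4.74 to 5.35 in the HD arrays and 4.39 to 4.66 in the LD arrays (0.58, adjusted p = 0.132), and Blnk, an adaptor of the B cell receptor, and Pou2af1, a B cell coactivator, differed by −0.57 and −0.19. The 17 B cell genes had a median of −0.05 and the 20 T cell genes one of 0.04, with no call in either. Of the T cell genes, Cd3e, Ptprcap, Cd5 and Trat1 differed by 0.30, 0.26, 0.27 and 0.35, and Cd3d by −0.24. Irf8, a transcription factor of dendritic cells and macrophages, had 4.84 to 5.42 in the HD arrays and 5.68 to 6.35 in the LD arrays (−0.76, adjusted p = 0.121).

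**Figure D2:**
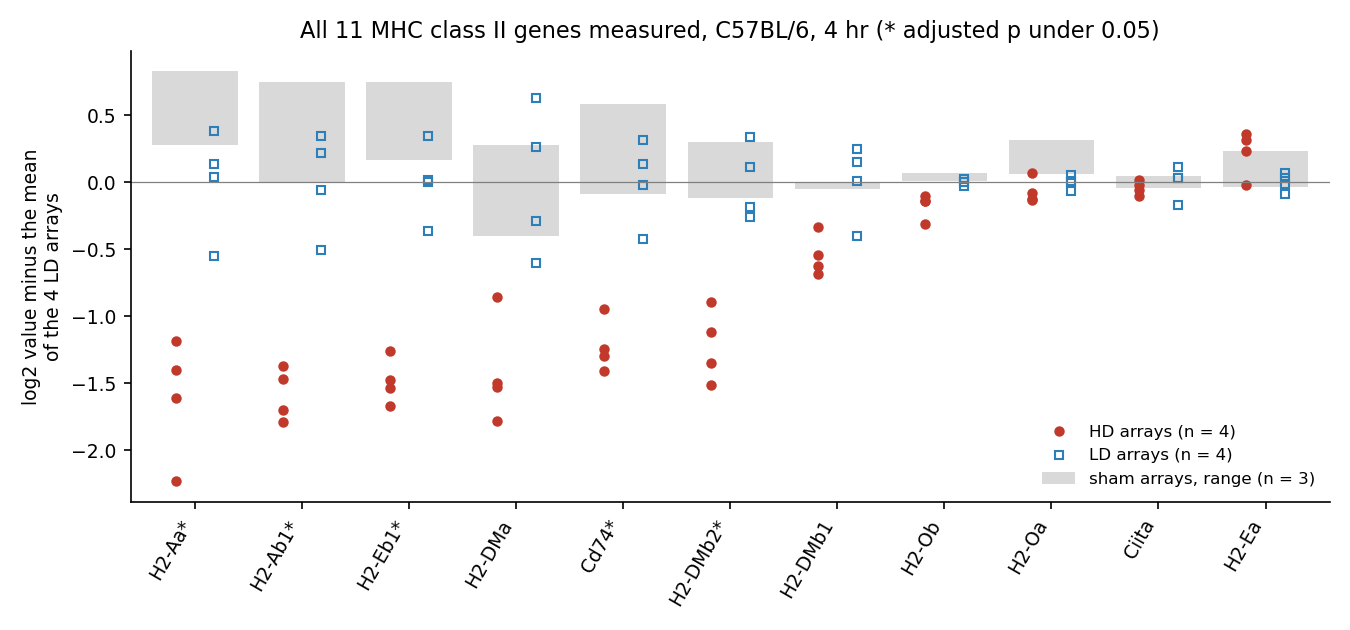
Log2 value of each array minus the mean of the 4 LD arrays for the 11 MHC class II genes, with HD arrays as filled circles on the left, LD arrays as open squares on the right (n = 4 each), the range of 3 sham arrays as grey boxes and an asterisk for an adjusted p under 0.05. HD arrays lie below every LD array in the 5 genes with an asterisk and in H2-DMa and H2-Ob, while Ciita, H2-Oa and H2-Ea show differences of −0.04, −0.07 and 0.22.

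The remaining 14 lower genes included receptors and regulators. Ramp1, a partner of the receptor for calcitonin gene-related peptide, measured 5.27, 5.45, 5.34 and 5.73 in the HD arrays, against 6.37, 6.95, 6.76 and 6.56 in the LD arrays and 6.00 to 6.35 in the sham arrays. Its LD arrays lay above all sham arrays and its HD arrays below them. The difference was −1.21 (SE 0.14, adjusted p = 0.00816), and it passed whichever array was left out. Ccr2, the receptor that draws monocytes into tissue, had 4.52 to 4.67 in the HD arrays and 5.25 to 5.87 in the LD arrays (−0.90, SE 0.13, adjusted p = 0.0303), and its brighter probe sets differed by −1.70 (adjusted p = 0.0572) and −1.43 (adjusted p = 0.140).

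Among the others, Id2, which blocks basic helix-loop-helix factors, had 7.62 to 8.32 in the HD arrays and 8.79 to 9.37 in the LD arrays (−1.16, SE 0.18, adjusted p = 0.0389), and Sox4, a transcription factor, had a difference of −0.98 (SE 0.16, adjusted p = 0.0392). All 5 probe sets of Sox4 and all 3 of Id2 were below 0, and 1 of each passed. Sinhcaf, a subunit of Sin3 histone deacetylase complexes, was lower with a difference of −0.89 (adjusted p = 0.0272), and the zinc finger protein Zfp521 with −0.63 (adjusted p = 0.0469). Bik, a pro-apoptotic BH3-only protein, moved opposite to the p53-linked apoptosis genes called, with 5.08 to 5.40 in the HD arrays and 6.08 to 6.85 in the LD arrays (−1.17, SE 0.16, adjusted p = 0.0171).

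Signaling genes completed the list. Ntn1, the guidance cue netrin 1, was lower (−0.75, SE 0.097, adjusted p = 0.0143), as were Il13ra1, a chain of the interleukin 13 receptor (−0.79, SE 0.13, adjusted p = 0.0431), Traf5, an adaptor of tumor necrosis factor receptors (−0.56, SE 0.083, adjusted p = 0.0303), and Rassf5, a Ras effector (−0.79, SE 0.12, adjusted p = 0.0357). Ptpre, a tyrosine phosphatase, had HD arrays at 6.00 to 6.45 and LD arrays at 6.97 to 7.10, and 1 sham array at 6.08 lay among the HD arrays. The second probe sets of Sinhcaf and Ntn1 were not below 0, with differences of 0.02 and 0.10. Sfpq, a splicing factor, and Lcn2, lipocalin 2, had differences of −0.64 and −0.84. Of these 14 genes, Ramp1 alone passed in all 8 fits without 1 array.

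**Figure D3:**
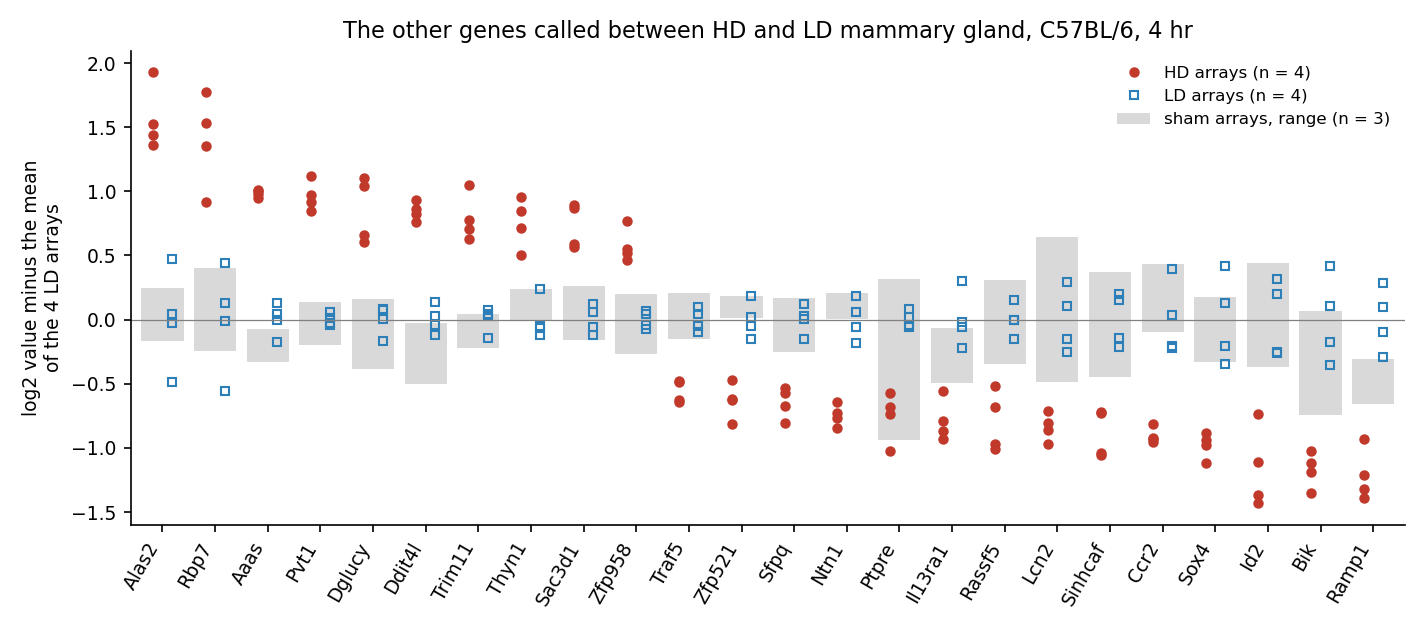
Log2 value of each array minus the mean of the 4 LD arrays for the 24 called genes outside the p53 and MHC class II lists, with HD arrays as filled circles on the left, LD arrays as open squares on the right (n = 4 each) and the range of 3 sham arrays as grey boxes. HD and LD arrays do not overlap in any gene, and in Ramp1 the LD arrays lie above the sham range of 6.00 to 6.35.

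Epithelial and cell cycle genes lay lower in HD, and of the luminal, myoepithelial, mitosis and replication lists only Lcn2 passed the test. Of 29 luminal genes, 1 (Lcn2, which neutrophils also express) was called lower, where 0.161% of all genes were lower. In all, 28 were below 0, with a median of −0.80. An unadjusted p under 0.05 in that direction was found for 21 of them, beside 10.3% of all genes at their brightest probe sets. The list means were −0.52 to −0.02 in the HD arrays, −0.14 to 0.99 in the LD arrays and 0.26 to 0.41 in the sham arrays. LD replicates 2 and 3 were the highest, and LD replicate 1 lay within the range of the HD arrays. Elf5, a transcription factor of alveolar cells, measured 6.75, 6.16, 7.02 and 6.88 in the HD arrays, against 7.49, 9.17, 10.06 and 7.81 in the LD arrays (−1.93, SE 0.49, adjusted p = 0.147). Muc1, a mucin of the luminal surface, had 4.63 to 4.70 in the HD arrays and 5.16 to 5.84 in the LD arrays (−0.88, adjusted p = 0.0728), and Runx1, a transcription factor, had 6.06 to 6.21 in the HD arrays and 6.59 to 7.26 in the LD arrays (−0.80, adjusted p = 0.0860). Gata3, Krt19 and Cd24a had differences of −0.88, −0.82 and −0.86, with adjusted p of 0.176, 0.200 and 0.142. Aldh1a3, which makes retinoic acid, had 6.89 to 7.56 in the HD arrays and 7.86 to 9.18 in the LD arrays (−1.04, adjusted p = 0.150). Runx1 had 1 probe set above 0 (0.10).

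The 17 myoepithelial genes were all below 0 at their brightest probe sets, with a median of −0.36 and no call, and Trp63, which marks basal cells, had a difference of −1.19 (adjusted p = 0.169) and 2 probe sets above 0 (up to 0.06). Krt14 and Cdh3 had differences of −0.79 and −0.36, and Col17a1 and Lamb3, which anchor basal cells to the matrix, −1.12 and −0.89, with adjusted p of 0.230 to 0.293 in these 4 genes. Of 45 mitosis genes, 0 passed and 40 were below 0, with a median of −0.68. Their list means were −0.39 to 0.16 in the HD arrays, −0.31 to 1.51 in the LD arrays and −0.23 to 1.06 in the sham arrays, with LD replicate 3 the highest. Ccnb2, cyclin B2, showed this spread, at 4.32 to 5.05 in the HD arrays and 4.98, 6.50, 7.88 and 5.61 in the LD arrays (−1.46, SE 0.51, adjusted p = 0.233). Stmn1, which destabilizes microtubules, had 4.04 to 4.47 in the HD arrays and 4.78 to 6.30 in the LD arrays (−1.18, adjusted p = 0.140). The kinesins Kif2c and Kif20a and the kinase subunit Cks2 differed by −0.42, −0.95 and −1.26, with adjusted p of 0.196 to 0.230. Of 44 DNA replication genes, 0 passed, 40 were below 0 and the median was −0.31, with Mcm7 of the replicative helicase at −0.47 (adjusted p = 0.127). Cdc7, a kinase that starts replication origins, had 4.62 to 4.89 in the HD arrays and 5.29 to 6.01 in the LD arrays (−0.82, SE 0.17), and Rfc4 of the clamp loader, Dnmt1, the maintenance DNA methyltransferase, and Prim2 of primase differed by −0.54, −0.67 and −0.38 (adjusted p of 0.0989, 0.106 and 0.125). With plate column as a linear term, the luminal median was −0.16, the myoepithelial median −0.09, the mitosis median 0.05 and the replication median −0.01. The median of the MHC class II genes was −1.13 in that fit. Columns and doses were not shared, and the part of the column in these values was not tested further.

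Of 20 genes looked up from the study, Cdkn1a alone was called. The study names Cdkn1a and Sox9 for the LD response of C57BL/6 glands at 1 month, and Slc5a5 was not found in its text. It names the others for the early response of BALB/c glands to LD against sham. That is another strain and another contrast than the one read here. For Cdt1 and Irf8 the study also lists C57BL/6 values against sham, lower after HD and not significantly changed after LD. None of the genes named for the early response was called here. Wnt4, a duct-forming signal downstream of progesterone, had 6.13 to 7.33 in the HD arrays and 7.12 to 7.92 in the LD arrays (−0.88, adjusted p = 0.168), and Sox9 had 5.35 to 5.87 in the HD arrays and 5.68 to 7.17 in the LD arrays (−0.95, adjusted p = 0.206), so that the groups overlapped in both. Ido1, which degrades tryptophan, spread from 9.80 to 10.64 in the HD arrays and from 8.85 to 11.07 in the LD arrays (0.32, adjusted p = 0.747), and Gpnmb differed by 0.43 (adjusted p = 0.517). Msx2, Stc2, Slc5a5, Stat5a and Hif1a differed by −0.58, −0.39, −0.35, −0.12 and −0.09, with adjusted p of at least 0.260 and overlapping groups. Rab20 had HD arrays below all LD arrays (−0.40, adjusted p = 0.191). Cdt1, a replication licensing factor, and Fxyd2 differed by −0.41 and 0.29 (adjusted p of 0.308 and 0.314), and each had probe sets of the other sign.

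**Figure D4:**
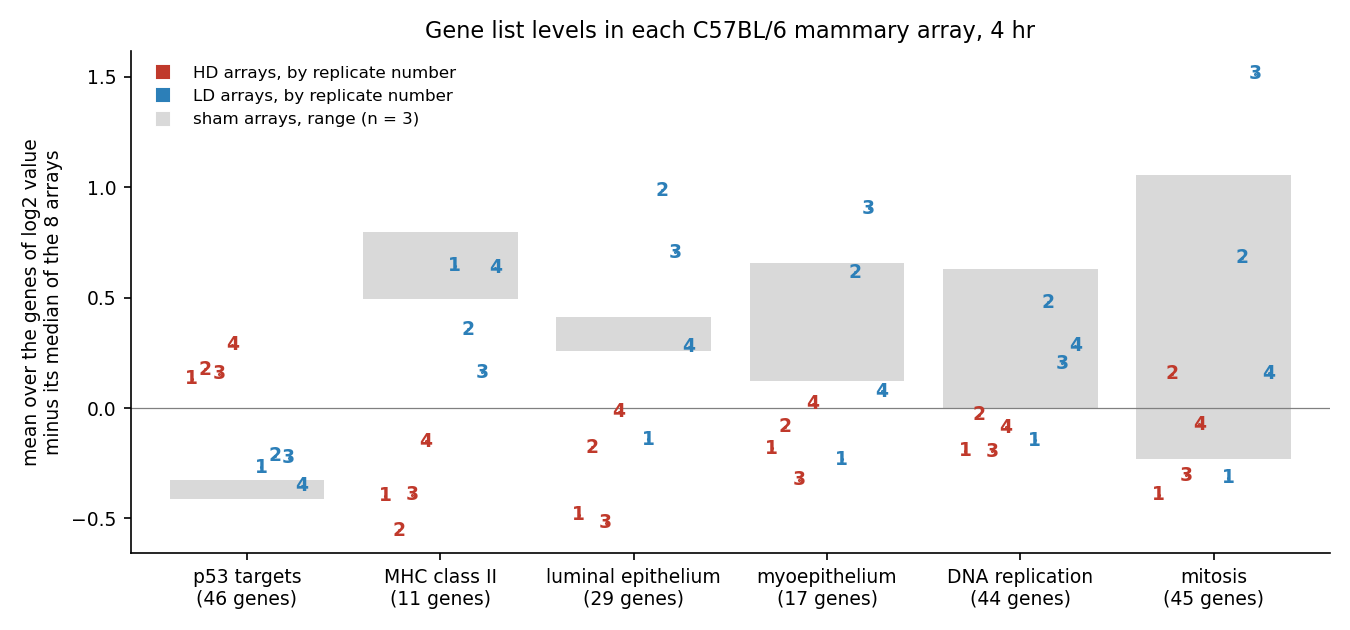
Mean over the genes of each list of the log2 value minus the gene's median of the 8 arrays, with HD arrays in red on the left and LD arrays in blue on the right, each shown by its replicate number, and the range of 3 sham arrays in grey. HD and LD arrays are apart for p53 targets (0.13 to 0.29 in HD and −0.35 to −0.22 in LD) and MHC class II genes, and they overlap for the luminal, myoepithelial, replication and mitosis lists.

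In BALB/c glands at 4 hr, 44 of the 44 genes had the same sign as in C57BL/6 glands, as had 72.6% of all genes, and 21 of the 25 higher and 14 of the 19 lower genes were called the same way, where 4.33% and 7.02% of all genes were called higher and lower. The 25 higher genes had a median of 1.02 in BALB/c and 0.97 in C57BL/6, and the 19 lower genes −0.89 and −0.90. Cdkn1a differed by 3.12 in BALB/c glands, H2-Aa by −1.70 and Slc19a2 by 1.82. Traf5 and Ptpre differed by −0.01 and −0.09. The BALB/c samples of this time stood in the same plate columns as the C57BL/6 samples (HD in 6 to 8, LD in 9 to 12), so that dose and column cannot be told apart in either strain and the shared signs do not separate them. BALB/c HD replicate 1 held muscle transcripts (Acta1 at 13.02), LD replicate 1 held epidermal ones (Krt1 at 8.90) and LD replicate 2 had Acta1 at 9.60. The LD arrays that were kept, replicates 3 and 4, had Acta1 at 7.63 and 8.85 and Ckm at 6.84 and 6.30, against 5.50 to 7.31 and 4.62 to 5.09 in the HD arrays that were kept. Without these 3 arrays, 42 of the 44 genes had the same sign (all but Ptpre and Traf5), as had 68.9% of all genes, 14 higher and 5 lower genes were called the same way, where 0.711% and 1.54% of all genes were called, and the medians were 1.0 and −0.94.

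The difference between the strains' contrasts passed for 3 genes (0.0254% of genes), none of them among the 44, and 895 genes (7.58%) had an unadjusted p under 0.05. It passed for 13 genes without the 3 BALB/c arrays. H2-Ea, which BALB/c mice express, differed by −1.98 in BALB/c and −0.03 in C57BL/6 glands at 1 probe set, a strain difference (C57BL/6 minus BALB/c) of 1.94 (SE 0.26, adjusted p = 0.0131). Gas5, a non-coding RNA that hosts small nucleolar RNAs, differed by −0.17 in C57BL/6 and −1.02 in BALB/c (0.85, SE 0.13, adjusted p = 0.0421). Atp6v0e2, a proton pump subunit, differed by −0.59 in C57BL/6 and 0.46 in BALB/c (−1.05, SE 0.13, adjusted p = 0.0131).

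At 1 month, 38 of the 44 genes had the sign they had at 4 hr (54.4% of all genes did), 0 of them were called, and 1 gene in all was called higher (0.00847%) and 0 lower by limma, with 770 (6.52%) and 712 (6.03%) genes at an unadjusted p under 0.05. The 1 gene was Upk3a, an uroplakin of the bladder lining, at 2.40 (SE 0.14, adjusted p = 0.000226), which had −0.73 at 4 hr at the same probe set. The 25 higher genes had a median of 0.23 and the 19 lower genes one of −0.23. Alas2 kept the largest difference, 1.05, and Cdkn1a had 0.24. The plate columns were the other way round at this time, with HD in columns 9 to 12 and LD in columns 5 to 8. The difference between the contrasts of 4 hr and 1 month passed for 2 genes (0.0169% of genes, with 1814, or 15.4%, at an unadjusted p under 0.05). Slc19a2 differed by 1.96 at 4 hr and 0.24 at 1 month (4 hr minus 1 month 1.72, SE 0.18, adjusted p = 0.000684), and Aen by 1.82 and −0.08 (1.90, SE 0.20, adjusted p = 0.000684).

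**Figure D5:**
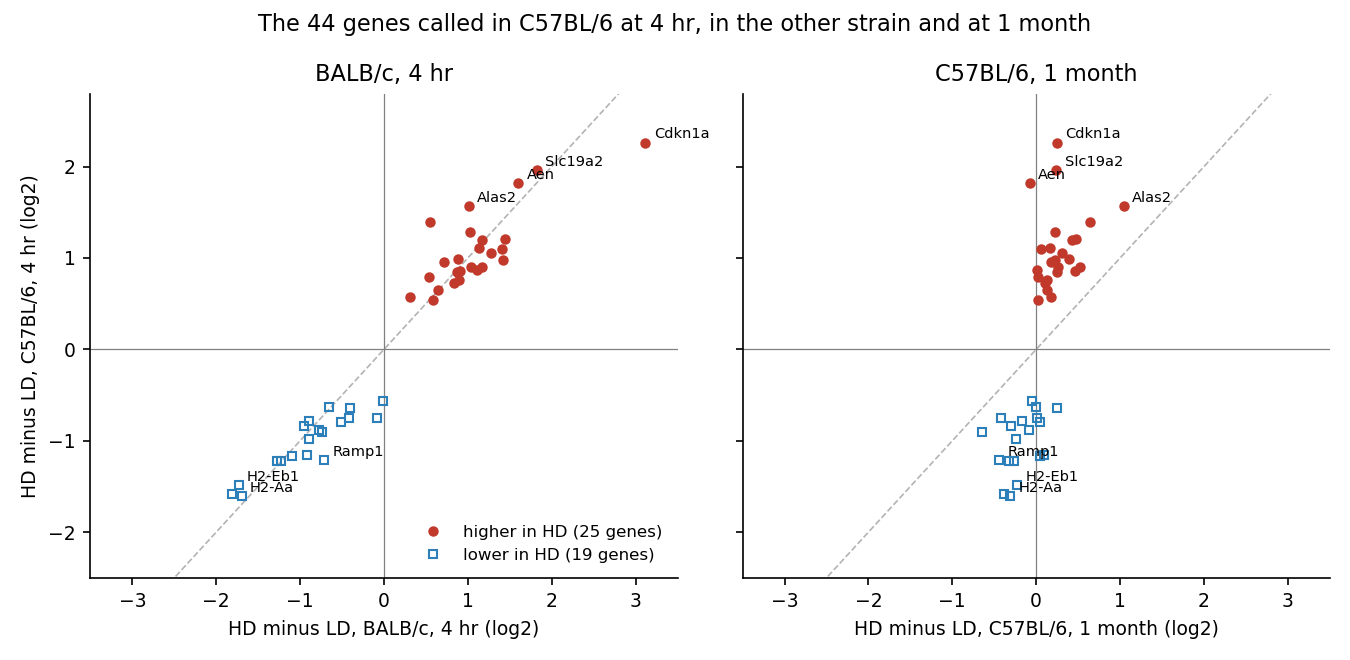
Difference of HD minus LD in C57BL/6 glands at 4 hr (vertical axis, log2) against the same difference in BALB/c glands at 4 hr (left) and in C57BL/6 glands at 1 month (right) for the 44 called genes, with higher genes as filled circles and lower genes as open squares, and equal values on the dashed line. The genes lie along the line in BALB/c, with medians of 1.02 and −0.89, and near 0 at 1 month, with medians of 0.23 and −0.23.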

How the data were processed

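RNA of whole mammary glands was hybridised to Affymetrix HT_MG-430A arrays, and the authors deposited log2 values after RMA, which were used as deposited. Raw intensities before RMA were not used. The number of arrays limits the precision (6 residual degrees of freedom, median SE 0.11). The 22626 probe sets of the 4 HD and 4 LD arrays were fitted with limma 3.58.1 in R 4.3.3 (lmFit, eBayes, Benjamini-Hochberg over all probe sets), and an adjusted p under 0.05 was a call. Differences between strains and between times were interaction terms over 16 arrays each. A gene counts as called at any probe set. Medians of lists use the brightest probe set, and named genes the one of smallest p. Of the probe sets, 18003 had 1 gene, 287 several and 4336 none, and 8 of the 60 called ones were unnamed. Sequences were matched by symbol, and H2-Ab1 and Cd74 are named only.

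Genes named were the 12 highest and 12 lowest called genes and the 5 members of smallest p in each list described. Genes looked up from the study and those of the interactions were named as well. The other called genes and the remaining MHC class II members were added so that none of these was left out. Some cell type markers were added as well, and others were not named. Members and lists were chosen with earlier results of these data known. Alternatives were the replicate number as a block, quantile normalization, leaving out the dimmest 25% of probe sets, array weights, a trended robust variance prior, plate column, all 23 C57BL/6 mammary arrays, other call rules, 1 probe set a gene and leaving out each array. The BALB/c values without 3 arrays were added after seeing the data. Figures were drawn with matplotlib 3.10.9. The fit was tested on simulated data.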

Additional observations from a re-analysis of the deposited data

Results flagged for a closer look

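In 6 of 140 groups of 4 arrays, 1 array stood apart from the other 3 (by Dixon's test of the gap to the nearest array, which chance passes in about 1 group in 20). Cdkn1a was 7.74 in LD replicate 1, against 5.96 to 6.21 in the other LD arrays, and Aen was 5.09 in LD replicate 2, against 5.45 to 5.52. Trp53inp1 was 8.96 in LD replicate 4, against 9.36 to 9.43. Among the HD arrays, Apaf1 was 7.52 in replicate 4, against 7.70 to 7.72, Muc1 was 4.70 in replicate 1, against 4.63 to 4.64, and Hbb-b2 was 13.2 in replicate 3, against 12.8 in the others.

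The difference of HD minus LD differed between C57BL/6 and BALB/c glands for H2-Ea, by 1.67 (SE 0.23) and 1.94 (SE 0.26) at its 2 probe sets past the threshold, for Gas5 by 0.85 (SE 0.13) and for Atp6v0e2 by −1.05 (SE 0.13), with adjusted p of 0.0131 to 0.0421 from limma. At 1 probe set H2-Ea measured 8.71 to 9.67 in the BALB/c HD arrays and 11.03 to 11.36 in the BALB/c LD arrays. Between 4 hr and 1 month in C57BL/6 glands it differed for Slc19a2 by 1.72 (SE 0.18) and for Aen by 1.75 (SE 0.26) and 1.90 (SE 0.20) at its 2 probe sets past the threshold, with adjusted p of 0.000684 to 0.0490.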

How the results depend on the processing

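The 25 higher and 19 lower genes became 28 and 13 after quantile normalization, 27 and 21 with array weights, 23 and 19 with a trended robust prior, 24 and 16 with 1 probe set a gene, 23 and 18 with a fold minimum, and 25 and 19 without the dimmest 25% of probe sets. Larger shifts came with all 23 C57BL/6 arrays in the fit (81 and 160) and with the study's HD thresholds (53 and 203). With the replicate number as a block the counts were 14 and 6, with 8 p53 targets and 3 MHC class II genes, and 0 genes differed between strains. Same-numbered arrays correlated at 0.15, 0.06, −0.19 and 0.22 in their deviations, so that the numbers were not taken as pairs. With plate column as a linear term, 1 higher gene (a p53 target), 0 lower genes, 0 MHC class II genes and 0 time differences passed, Krt19 was at 0.034, and the medians of the mitosis and oxidative phosphorylation lists were 0.047 and −0.013. The cause was not tested. Leaving out 1 array gave 16 to 30 higher genes, 3 to 65 lower genes, 11 to 16 p53 targets, 2 to 5 MHC class II genes (2 without HD replicate 1, 2 or 3 and 3 without LD replicate 2), 1 to 5 strain differences (1 without BALB/c LD replicate 1, 5 without BALB/c HD replicate 1) and 2 to 9 time differences (9 without HD replicate 3 of 1 month, 7 without LD replicate 1 and 4 without LD replicate 4 of 4 hr). Lower genes numbered 4, 6 and 3 without HD replicates 1, 2 and 3, and 65, 7 and 9 without LD replicates 1, 2 and 3. Quantile normalization gave 6 time differences, and 13 strain differences were called without 3 BALB/c arrays with muscle or skin transcripts. Over 1005 recomputed differences of 67 single genes, 1 (Krt19) changed sign, and 223 of the 660 of called genes lost the call. Where a spread between replicates is wide, as in Elf5 and Ccnb2, 4 arrays a group limit what can be called.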

Other observations

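Some lists outside the report's groups lay to 1 side without a call. The 26 ribosomal protein genes were all below 0, with a median difference of HD minus LD of −0.20, and the 32 oxidative phosphorylation genes were all above 0, with a median of 0.13. With plate column as a linear term these medians were −0.03 and −0.01. Of 21 TGF-beta pathway genes 0 passed, with list means of −0.14 to −0.02 in the HD arrays, 0.09 to 0.17 in the LD arrays and 0.09 to 0.23 in the sham arrays, and a median of −0.16, which was −0.06 with plate column as a linear term and −0.10 after quantile normalization. Of 12 neutrophil genes, Lcn2 was called lower, where 0.161% of all genes were lower, while 9 were above 0 with a median of 0.21. Ngp, a protein of neutrophil granules, lay above the LD range of 4.56 to 4.75 in all 4 HD arrays (0.67, adjusted p = 0.0734 from limma). Cxcr2, a chemokine receptor, and Elane, neutrophil elastase, had HD arrays above all LD arrays as well (0.34 and 0.32, adjusted p of 0.207 and 0.212), and Mmp8, a collagenase, differed by 0.38 with overlapping groups (adjusted p = 0.241).

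Promoters of mitosis genes held TTTGAA or TTCGAA (either strand), letters of the CHR element, in 29 of 37 genes (78.4%), against 21.7% of all genes, and CCAAT in 27 of 37 (73.0%), against 41.1%.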
